A study of Mus musculus with 12 samples.

Results

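Exosomes are small vesicles that cells release and that can be loaded with short nucleic acids, and the livers described here came from mice given 1 of 2 control loads in such a preparation, which the labels call iExos. The control livers were chosen by their labels alone: the 3 libraries of siCntrl iExos and the 3 of mASO Scrbl iExos, 6 of the 12 libraries in the series. All 12 libraries came from mice of the BALB/c strain, and each library is the polyadenylated RNA of a liver. The other 6 libraries came from livers of mice injected with siSTAT3 iExos or mASO STAT3 iExos, 3 of each. The title of the series places the work in liver fibrosis. Dose, time, age, sex, the way fibrosis was brought about and whether each library is 1 animal were not stated in the labels, so the p-values measure the spread between these libraries. No group without an injection was analysed here, so neither load can be set against an untreated liver.

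A small interfering RNA is loaded into an Argonaute protein and guides it to a matching messenger RNA. An antisense oligonucleotide pairs with its target RNA directly, and many designs recruit RNase H to cut it. A control load has the same chemistry and a sequence meant to match no messenger RNA, and short nucleic acids can also be sensed by innate receptors that switch on interferon-stimulated genes. Hepatocytes make most plasma proteins, and in inflammation interleukin 6 acting through STAT3, together with interleukin 1, raises the acute phase proteins, among them the serum amyloid A family. For that family the files bear on which members stood apart between the loads, so the start regions of its 3 inducible genes are shown here. Each is 300 bases, 250 before to 50 after the RefSeq start, build GRCm38.p6: Saa3 at chr7:46715627-46715926 on the minus strand, Saa1 at chr7:46742931-46743230 on the minus strand and Saa2 at chr7:46751583-46751882 on the plus strand. Capitals mark a match to TTGCNNAAT, a C/EBP-like motif, on either strand.
Saa3: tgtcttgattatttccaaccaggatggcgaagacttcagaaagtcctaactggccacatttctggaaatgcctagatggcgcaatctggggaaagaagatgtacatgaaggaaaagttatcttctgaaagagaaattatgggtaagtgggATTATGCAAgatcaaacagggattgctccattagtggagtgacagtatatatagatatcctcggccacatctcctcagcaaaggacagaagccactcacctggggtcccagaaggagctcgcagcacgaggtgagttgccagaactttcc
Saa1: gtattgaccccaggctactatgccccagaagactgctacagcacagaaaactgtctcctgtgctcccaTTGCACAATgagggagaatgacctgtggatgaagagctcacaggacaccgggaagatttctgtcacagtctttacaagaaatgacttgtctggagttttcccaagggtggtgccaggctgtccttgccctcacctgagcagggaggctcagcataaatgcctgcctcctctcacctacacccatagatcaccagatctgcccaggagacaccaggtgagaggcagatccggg
Saa2: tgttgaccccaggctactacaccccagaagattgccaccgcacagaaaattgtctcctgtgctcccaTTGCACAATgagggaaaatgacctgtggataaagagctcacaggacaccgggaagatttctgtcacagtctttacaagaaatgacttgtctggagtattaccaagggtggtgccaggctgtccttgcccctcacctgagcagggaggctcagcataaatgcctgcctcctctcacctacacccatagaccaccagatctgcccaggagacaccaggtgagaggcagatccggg

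The capitals lie 100 bases before the start in Saa3, 182 in Saa1 and 183 in Saa2. Of 32851 RefSeq promoters of the same length, 2.4% hold such a match. No match to TTCNNNGAA, a STAT-like motif present in 8.3% of promoters, was found in these 3 windows on either strand. Saa1 and Saa2 are close copies, with 94.4% identity over 606 aligned transcript bases, whereas Saa3 and Saa1 share 70.3% over 609. Reads of Saa1 and Saa2 may therefore have been split between them in the counting.

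The 6 control libraries held 55406038 to 67791159 counts each, and 19386 to 19895 gene symbols had at least 1 count. Levels are given as CPM, the usual depth-scaled count, with library totals adjusted by TMM. Stat3, the target named in the labels of the other groups, stood at 106, 121 and 111 CPM in siCntrl and at 106, 89.96 and 101 CPM in mASO Scrbl. The 6 libraries labelled STAT3 lay between 88.2 and 122 CPM and overlapped the controls, so the level of Stat3 messenger RNA does not check those labels. Between the control loads Stat3 differed by -0.18 ± 0.14 (log2 fold change ± SE, 95% interval -0.48 to 0.12), edgeR adjusted p = 0.733.

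The control livers had the transcript make-up of hepatocytes. Alb, which encodes serum albumin, took 6.51% of all counts on average and 4.44% to 8.66% in single libraries. Among the next were the mitochondrial mt-Co1 at 1.503%, Apoe, a lipoprotein component, at 1.36%, Hpx, which binds free haem, at 1.35%, and Ahsg, a secreted inhibitor of calcification, at 1.16%. The complement protein gene C3 followed at 1.14% and the haemoglobin carrier gene Hp at 1.02%. The 25 genes with the largest shares together held 24.5% of the counts. Saa1 and Saa2 were among these 25, with mean shares of 0.548% and 0.532%, although their shares in single libraries ran from 0.0197% to 1.403% and from 0.00724% to 1.47%. Per kilobase of exon Alb remained first, at 23139.5 CPM per kb, and mt-Cytb was second at 8324.45.

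At a level of 1 CPM or more, 11698 genes were present in all 6 control livers, which is 89.1% of the 13133 that reached it in at least 1. At 10 CPM the numbers were 7339 of 8763, at 100 CPM 1006 of 1585, and at 1000 CPM 62 of 103. Every tested member of the hepatocyte core list, 18 of 18, exceeded 1 CPM in all 6. The same was true of 37 of 37 tested matrix and fibrosis genes, 15 of 15 sinusoidal endothelial genes, 13 of 13 Kupffer cell and macrophage genes, and 14 of 17 stellate cell and myofibroblast genes. None of the 12 tested T and NK cell genes did, and their summed level was 2.87 to 7.64 CPM. Markers of neighbouring tissues were partly absent. Of 9 measured exocrine pancreas genes, 6 were at a count of 0 in all 6 libraries (Cela3b, Pnlip, Ctrb1, Clps, Cel and Rnase1), and 1 exceeded 1 CPM in all 6, at 3.62 to 6.65 CPM. Of 10 fat cell genes 2 were at 0 (Adipoq and Ucp1) and 4 exceeded 1 CPM in all 6, with a summed level of 154 to 290.1 CPM. Of 10 muscle genes 1 was at 0 (the myosin gene Myh4) and 2 exceeded 1 CPM in all 6, with a summed level of 18.8 to 32.4 CPM. In a whole liver, fewer cells of a type and less RNA per cell cannot be told apart.

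Some genes were nearly equal across all 6 control livers. Among 8091 genes with a mean of at least 10 CPM, the median SD of log2 CPM over the 6 libraries was 0.186, and the median SD within a load was 0.174. Vezt, which encodes a protein of cell junctions, had the smallest SD of these genes, 0.02, at 15.2, 15.3 and 15.7 CPM in siCntrl and 15.2, 15.2 and 15.5 CPM in mASO Scrbl. Calm2, one of the calmodulin genes, lay between 247 and 259 CPM, and Rpl7a, a ribosomal protein gene, between 607 and 647. At the other end, Saa2, Saa3, Saa1 and Orm2 were among the 10 genes with the largest SD, 2.88, 2.69, 2.29 and 1.67.

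The control livers also shared a set of differences from the livers labelled STAT3. In the same edgeR fit, 9267 of 15720 tested genes (59% of all tested) differed between the 6 control and the 6 STAT3-labelled libraries at an adjusted p under 0.05, 4855 (30.9%) higher and 4412 (28.1%) lower in the controls. Of the matrix and fibrosis list, 34 of 37 were higher in the controls and 1 was lower. Of the drug-metabolising P450 list, whose members oxidise foreign compounds, 29 of 31 were lower in the controls and 1 was higher. Summed P450 levels were 2705.48 to 4133.5 CPM in the controls and 24366.4 to 29233.4 CPM in the others, with no overlap. Of the cholangiocyte and progenitor list, 7 of 12 tested members were higher in the controls and 1 was lower. The list summed to 4744.15 to 9098.19 CPM in the controls and to 584 to 879 CPM in the others. Most of the control sum came from Krt8 and Krt18, which hepatocytes also express. In the stellate cell and myofibroblast list, 9 of 17 were higher in the controls and 4 were lower. That list summed to 539 to 900 CPM in the controls and to 262 to 384 CPM in the others. Its member Acta2, the smooth muscle actin of activated stellate cells, lay between 81.9 and 145 CPM in the 6 controls. In the others Acta2 lay between 0.93 and 1.67 CPM. TMM factors also differed, 1.11 to 1.27 in the controls and 0.804 to 0.901 in the others. With library totals in place of TMM, 11180 genes were called between control and STAT3-labelled livers, and with DESeq2 size factors 9237. The list counts and levels above are with TMM only.

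**Figure D1:**
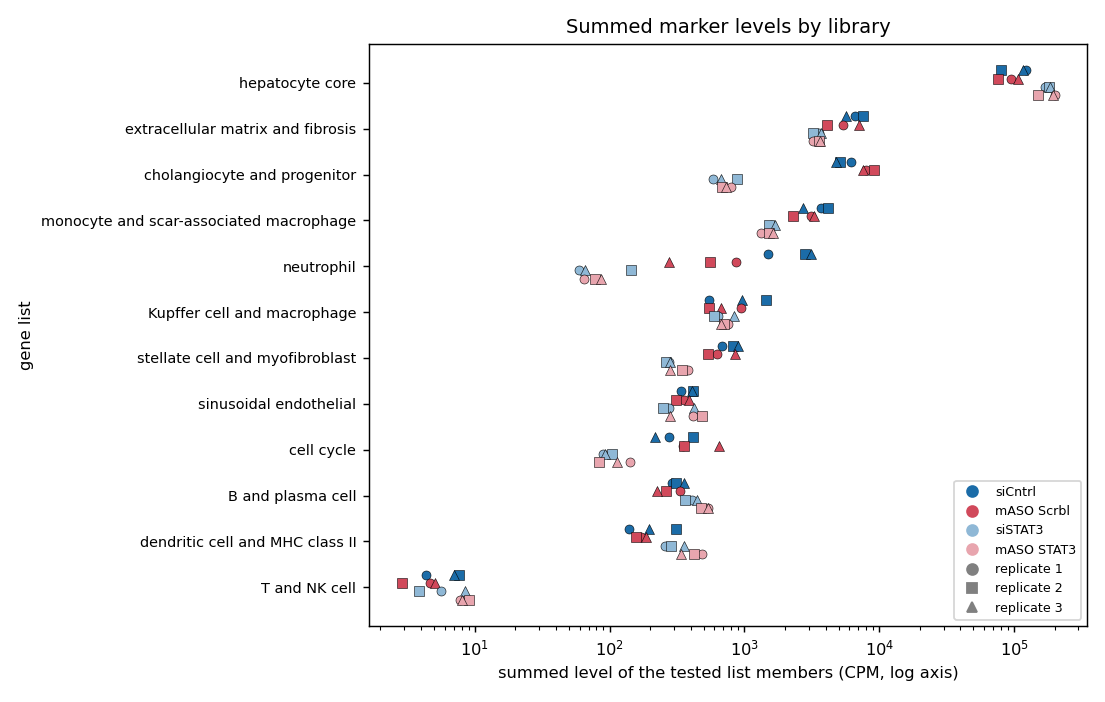
Summed level (CPM, log axis) of the tested members of 12 gene lists in each of the 12 libraries, with colour for the group and shape for the replicate number. The 2 control loads lie close to each other on most rows, and both lie far from the STAT3-labelled groups on the cholangiocyte row. On that row Krt8 and Krt18, which hepatocytes also express, make up most of the control sums.

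The first question between the loads is how far apart their livers were as a whole. Over 12465 genes at 1 CPM or more on average, the median absolute log2 difference between 2 libraries of the same load was 0.176 to 0.25 (6 pairs, median 0.22). Between a library of one load and a library of the other it was 0.141 to 0.318 (9 pairs, median 0.221). The closest of all 15 pairs joined the loads, siCntrl replicate 1 and mASO Scrbl replicate 1. Control and STAT3-labelled libraries were 0.429 to 0.659 apart (36 pairs). The first principal component of the 6 controls carried 40.97% of the variance and did not separate the loads, with siCntrl at -10.7, 28.5 and 23.1 and mASO Scrbl at -15.7, -29.1 and 3.9. Depth, the share of the top 10 genes, and the mitochondrial share overlapped between the loads as well (exact two-sided permutation test, p = 0.5 each, where the smallest possible p is 0.1).

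**Figure D2:**
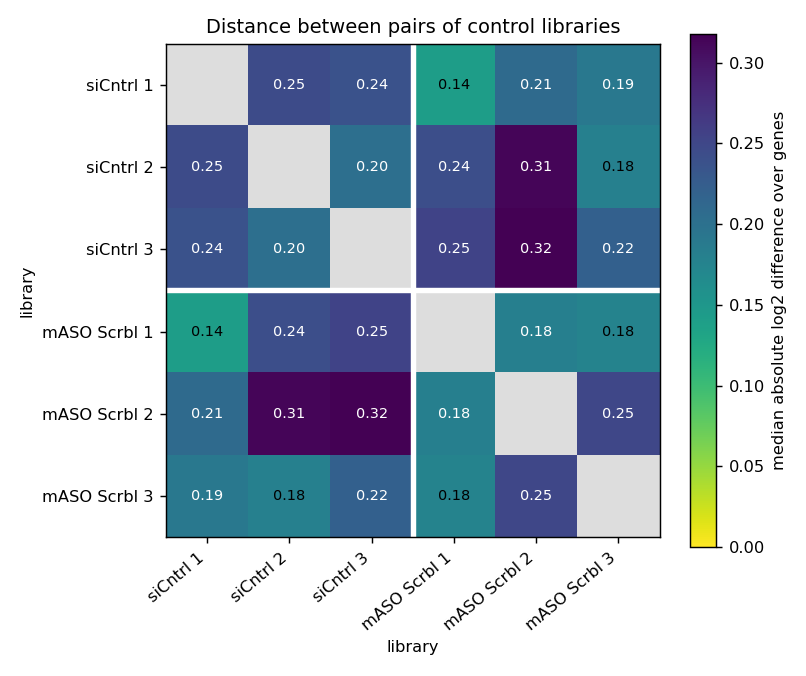
Median absolute log2 difference over 12465 genes for each pair of the 6 control libraries, with white lines between the loads and the value printed in each cell. Values between loads, 0.141 to 0.318, span those within a load, 0.176 to 0.25.

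Gene by gene, 2 of 15720 tested genes (0.0127% of all tested) fell in mASO Scrbl against siCntrl at an edgeR adjusted p under 0.05, and 0 rose. These were Saa3 and Ppp1r2-ps4. At an unadjusted p under 0.05 there were 1234 genes (7.85%), 709 lower (4.51%) and 525 higher genes (3.34%). The 3 libraries of one load did not overlap the 3 of the other for 1952 genes (12.4%), 891 lower (5.67%) and 1061 higher (6.75%) in mASO Scrbl. For 10279 genes (65.4%) the 95% interval of the difference lay within 2-fold in both directions, and for the others a difference of that size was not bounded. The number of calls depended on the test: limma voom gave 2 lower and 0 higher genes, and DESeq2 over the 12 libraries gave 55 lower and 24 higher, including both edgeR calls. Counts from DESeq2 are over the 12 libraries unless stated. It also depended on single libraries, with 9 lower and 4 higher without siCntrl replicate 1, 1 lower and 3 higher without mASO Scrbl replicate 1, 0 of either without mASO Scrbl replicate 2 and 1 lower without mASO Scrbl replicate 3.

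**Figure D3:**
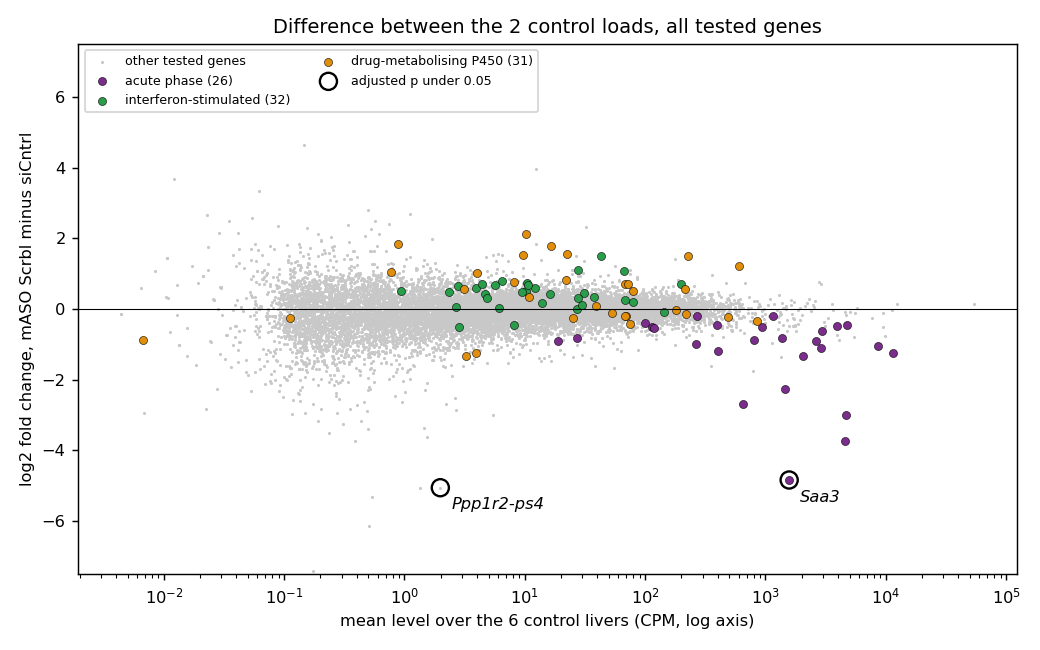
Log2 fold change of mASO Scrbl minus siCntrl against the mean level over the 6 control livers (CPM, log axis) for the 15720 tested genes, with 3 gene lists in colour. The 2 circled genes passed the test, and all 26 acute phase genes lie below 0.

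Saa3, which encodes an acute phase serum amyloid A that macrophages and fat tissue also make, stood at 1249, 2212 and 5670 CPM in the siCntrl livers. In mASO Scrbl it stood at 119, 145 and 54.7 CPM. The lowest siCntrl library was far above the highest mASO Scrbl library, and the 6 STAT3-labelled livers were lower still, between 18.3 and 42.1 CPM. Its mean was 28.6 times as high in siCntrl (3044 ± 2330 CPM, SD, n = 3) as in mASO Scrbl (106 ± 46.7 CPM). The log2 fold change was -4.84 ± 0.57, edgeR adjusted p = 0.026. In 15 alternatives the fold change stayed between -5.21 and -4.05 and passed in 8, with adjusted p from 5.64e-15 to 0.173. The call was lost without siCntrl replicate 2 (adjusted p = 0.0561) and without mASO Scrbl replicate 1, 2 or 3 (0.107, 0.0925 and 0.0856), and without siCntrl replicate 3 the fold change was -4.05. In GENCODE M21 on GRCm38 the gene lies at chr7:46711998-46715700 on the minus strand.

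Saa1 and Saa2, the main circulating amyloid A proteins made by hepatocytes, showed the same order of groups with a wider spread. Saa1 was at 4318, 8080 and 12582 CPM in siCntrl and at 1099, 1876 and 157 CPM in mASO Scrbl. Saa2 was at 4082, 8207 and 13176 CPM in siCntrl and at 614, 1233 and 58 CPM in mASO Scrbl. For both genes every siCntrl library exceeded every mASO Scrbl library, and mASO Scrbl replicate 3 was the lowest of the 6. The log2 fold changes, -2.995 ± 0.74 and -3.74 ± 0.88, did not pass edgeR's test (adjusted p = 0.411 for each), and without mASO Scrbl replicate 2 they were -3.73 and -4.66. DESeq2 over the 12 libraries called both (adjusted p = 0.00179 and 0.000118). Saa4, the constitutively expressed member, was at 146, 128 and 124 CPM in siCntrl and 107, 86.4 and 87.8 CPM in mASO Scrbl, a log2 difference of -0.50 ± 0.15 (edgeR adjusted p = 0.535). Its level in the STAT3-labelled livers was 369 to 487 CPM, above all 6 controls, which is the opposite order to that of Saa1, Saa2 and Saa3. The log2 differences of the 3 inducible genes between the loads were the 3 largest of the acute phase list. Saa1 and Saa2, as close copies, are not separate observations of the C/EBP-like match printed above. The start regions of Lcn2, Orm2, Hpx, Itih4 and Cp, also lower in mASO Scrbl without overlap, held 0 C/EBP-like matches. That of Itih4 held 1 STAT-like match. The start regions of Orm1 and Hp, also lower without overlap, were not searched, so these genes cannot be placed with or without a match. A part of either motif in the differences was not tested.

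Saa3 was also the only call among the genes of 49 lists of liver functions and cell types. Of 819 tested members 1 passed edgeR's test, 150 had an unadjusted p under 0.05, and 48 of the lists held no called gene. Among all 15720 tested genes, 2 passed (0.0127%) and 1234 had an unadjusted p under 0.05 (7.85%). The remaining acute phase genes had smaller differences of the same sign. All 26 tested members of the list had a negative log2 fold change, with a median of -0.90 against 0.01 for all tested genes. Of these 26, 1 passed edgeR's test (Saa3), 19 were lower at an unadjusted p under 0.05 and 18 were lower with no overlap between the loads. Over all tested genes, 4.51% were lower at that p and 5.67% were lower with no overlap. DESeq2 called 11 of them lower over the 12 libraries and 11 over the 6 controls alone, not all the same, with Orm2 and Itih3 in the first set and not the second, and Mt1 and Mt2 in the second and not the first. By limma voom 1 of the 26 was called. Among all tested genes DESeq2 called 55 lower over the 12 libraries and 64 lower over the 6 controls alone. The summed level of the list was 64395.9 to 101911 CPM in siCntrl and 25299.8 to 40575.9 CPM in mASO Scrbl. That of the 6 STAT3-labelled livers was 30744.2 to 37869.5 CPM, inside the range of mASO Scrbl. A like sum does not mean like members. Against the STAT3-labelled livers, 12 of the 26 were higher and 4 lower in the 6 controls (30.9% and 28.1% of all tested genes). Between the loads, leaving out each control library in turn left 25 or 26 of the 26 genes negative.

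Among these members, Orm1 and Orm2 encode alpha-1-acid glycoproteins, which bind drugs in plasma. Orm1 was at 2003, 3239 and 3645 CPM in siCntrl and 1429, 1282 and 797 CPM in mASO Scrbl (log2 difference -1.34 ± 0.26, edgeR adjusted p = 0.182). Orm2 was at 394, 2068 and 921 CPM in siCntrl and 238, 214 and 77.1 CPM in mASO Scrbl, a difference of -2.68 ± 0.63, or -1.90 without siCntrl replicate 2. Neither gene overlapped between the loads, and both were lowest in mASO Scrbl replicate 3. Hp stood at 9167, 10207 and 15372 CPM against 6376, 5948 and 4530 CPM, and Hpx at 12077, 13951 and 22308 CPM against 8339, 7604 and 4300 CPM, siCntrl given first. The siCntrl livers had 2.06 times the mean level of Hp and 2.39 times that of Hpx, and for both genes siCntrl replicate 3 was the highest library. Cp, which encodes the copper protein ceruloplasmin, was at 3488, 3046 and 3738 CPM in siCntrl and 2257, 1670 and 1557 CPM in mASO Scrbl (-0.91 ± 0.17, edgeR adjusted p = 0.166). Itih4, an inter-alpha-trypsin inhibitor chain, was at 3213, 3851 and 4795 CPM and at 2100, 2145 and 1289 CPM in the same order (-1.10 ± 0.20, adjusted p = 0.166).

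**Figure D4:**
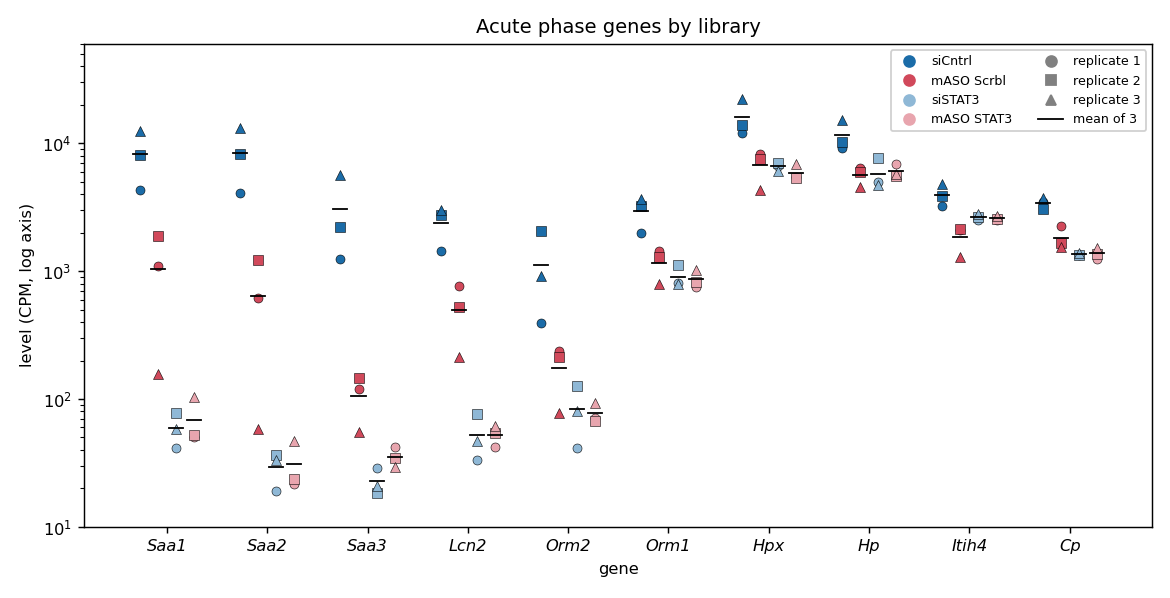
Level (CPM, log axis) of 10 acute phase genes in each of the 12 libraries, with colour for the group, shape for the replicate number and a line at the mean of 3. In each of the 10 genes the 3 siCntrl points lie above the 3 mASO Scrbl points, and for Saa3 the gap runs from 145 to 1249 CPM.

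Lcn2 encodes lipocalin 2, a protein that withholds iron from bacteria and is made by neutrophils as well as by inflamed hepatocytes. It was at 1428, 2744 and 3024 CPM in siCntrl and 767, 522 and 215 CPM in mASO Scrbl, with no overlap (-2.26 ± 0.45, edgeR adjusted p = 0.251). The 13 other tested neutrophil markers summed to 57.7 to 113 CPM in siCntrl and 39 to 101 CPM in mASO Scrbl, which overlap. S100a8 and S100a9, the most abundant neutrophil calcium-binding proteins, together reached 33.6 to 73.6 CPM and 24.9 to 62.9 CPM. Kupffer cell and macrophage markers also overlapped, at 545.87 to 1452.24 CPM in siCntrl and 550.31 to 947.01 CPM in mASO Scrbl, while 12 of the 13 tested members had a negative difference (median -0.39). The part of these cells in the acute phase levels was not tested. Metallothionein Mt1, which binds zinc and is also an acute phase gene, had a mean of 565 ± 163 CPM in siCntrl and 248 ± 50.7 CPM in mASO Scrbl (-1.18 ± 0.35), and did not pass edgeR's test.

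Ppp1r2-ps4, the other called gene, is annotated as a processed pseudogene of Ppp1r2, an inhibitor of protein phosphatase 1, at chr9:66805306-66805938 on the minus strand (GENCODE M21, GRCm38). It had 286, 301 and 240 counts in siCntrl and 8, 8 and 12 counts in mASO Scrbl, or 3.86 ± 0.439 and 0.114 ± 0.0298 CPM (SD, n = 3). The siCntrl livers were uniformly high and the mASO Scrbl livers uniformly near 0, a log2 fold change of -5.06 ± 0.56 (edgeR adjusted p = 0.00578). Of the 15 alternatives 14 called it, the exception being the fit without mASO Scrbl replicate 2 (adjusted p = 0.0527). Its counts also followed the arm in the STAT3-labelled livers, at 150, 55 and 82 in siSTAT3 and at 5, 42 and 19 in mASO STAT3. The parent gene was at 36.7, 28.3 and 36.5 CPM in siCntrl and 38.7, 48.8 and 39.3 CPM in mASO Scrbl (0.32 ± 0.19, edgeR adjusted p = 0.68), the opposite order. The 2 transcripts match at 598 of 621 aligned bases (96.3%), so the assignment of reads between them is uncertain.

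Genes induced by interferon had the opposite sign to the acute phase list. Of 32 tested members 28 had a positive log2 fold change, with a median of 0.46 against 0.01 for all tested genes. None passed edgeR's test, 13 were higher at an unadjusted p under 0.05, and 15 were higher in mASO Scrbl with no overlap. Over all tested genes, 3.34% were higher at that p and 6.75% were higher with no overlap. DESeq2 called 4 higher over the 12 libraries and 6 over the 6 controls alone, against 24 and 37 among all tested genes. Of the list, limma voom called 0. Isg15, a ubiquitin-like protein joined to other proteins in antiviral defence, was at 34.8, 12.8 and 19.6 CPM in siCntrl and 55, 80.8 and 52.9 CPM in mASO Scrbl (1.49 ± 0.30, edgeR adjusted p = 0.233). Irf7, a transcription factor that amplifies interferon production, was at 54.4, 37.5 and 38.2 CPM and at 84.04, 82.6 and 105 CPM (1.06 ± 0.19, adjusted p = 0.159). Ifi44, an interferon-induced protein, was at 20.3, 15 and 16.7 CPM and at 33.4, 38 and 41.2 CPM (1.11 ± 0.21). Bst2, which tethers budding virions to the cell, was at 154, 120 and 176 CPM in siCntrl and at 246, 246 and 248 CPM in mASO Scrbl. All 4 genes were higher in each mASO Scrbl library than in any siCntrl library. The summed level of the list was 702 to 882 CPM in siCntrl and 1042.79 to 1086.3 CPM in mASO Scrbl, and the STAT3-labelled livers, at 926 to 1370.21 CPM, covered the mASO Scrbl range. Without siCntrl replicate 1, edgeR called Isg15 (adjusted p = 0.00594) and Irf7 (0.0331).

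The genes through which the loads are bound or sensed were examined next. Of 19 tested RNA interference and RNase H genes, 0 passed edgeR's test, 0 had an unadjusted p under 0.05, DESeq2 and limma voom called 0, and all 19 had a 95% interval within 2-fold. Their summed level was nevertheless 554 to 654 CPM in siCntrl and 668 to 748 CPM in mASO Scrbl, with no overlap. Ago2, the Argonaute that cuts its target, was at 36, 34 and 30.1 CPM in siCntrl and 38.4, 40.5 and 37.5 CPM in mASO Scrbl (0.22 ± 0.14). Of 18 nucleic acid sensors, among them the Toll-like receptors of the endosome, 0 passed edgeR's test, 3 had an unadjusted p under 0.05, 0 were called by DESeq2 or limma voom, and 13 were bounded within 2-fold, as 65.4% of all tested genes were. Their median difference was 0.12. The share of all tested genes with an unadjusted p under 0.05 was 7.85%.

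Drug-metabolising P450 genes, which as a list were far below their level in the STAT3-labelled livers, had differences of both signs between the loads. Of 31 tested, 0 passed edgeR's test, 13 were higher and 2 lower at an unadjusted p under 0.05, and 9 were higher and 2 lower without overlap. Over all tested genes, 3.34% were higher and 4.51% lower at that p, and 6.75% higher and 5.67% lower without overlap. The lower members were thus near the share of all genes. DESeq2 called 6 of the list higher, against 24 among all tested genes, limma voom called 0 of the list, and the list median was 0.52. Without mASO Scrbl replicate 3 that median was 0.03. Cyp2c29, an abundant constitutive P450, was at 170, 83.1 and 103 CPM in siCntrl and 312, 376 and 329 CPM in mASO Scrbl (1.52 ± 0.27, edgeR adjusted p = 0.159). Its STAT3-labelled levels, 1601 to 3086 CPM, were several times higher than in either load. Cyp3a25 was at 50.2, 63.4 and 49.6 CPM and at 92.8, 87.7 and 87.8 CPM (0.72 ± 0.14, adjusted p = 0.181). In both genes the mASO Scrbl libraries were close to each other and above all of siCntrl. Cyp1a2, which oxidises caffeine in pericentral hepatocytes, was at 4.36, 5.2 and 5.34 CPM and at 6.29, 15.1 and 21.8 CPM (1.53 ± 0.33). Cyp2c50 was at 10, 6.35 and 5.83 CPM and at 11.2, 28 and 37.9 CPM (1.79 ± 0.35). For Cyp1a2 and Cyp2c50 mASO Scrbl replicate 1 lay near siCntrl, and both were called without it (edgeR adjusted p = 0.0035 each).

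Keratins 8 and 18, filament proteins of hepatocytes and bile duct cells, were the members of the cholangiocyte and progenitor list with no overlap. Krt8 was at 2664, 1775 and 2186 CPM in siCntrl and 3428, 4471 and 2996 CPM in mASO Scrbl (0.72 ± 0.18). Krt18 was at 2366, 1888 and 1962 CPM in siCntrl and 3421, 3991 and 3166 CPM in mASO Scrbl (0.77 ± 0.20). Both had an edgeR adjusted p of 0.411, and DESeq2 over the 12 libraries called both. The median of the 12 tested list members was -0.04 and 0 passed edgeR's test, while 3 had an unadjusted p under 0.05 and limma voom called 0. Among all tested genes, 7.85% had such a p, and 6.75% were higher with no overlap.

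In the lists of plasma proteins and metabolism, 0 members passed edgeR's test. Over all tested genes, 4.51% were lower and 3.34% higher at an unadjusted p under 0.05, and 5.67% lower and 6.75% higher with no overlap. Of 16 genes of gluconeogenesis, glycogen and insulin response, 4 were lower and 3 higher with no overlap between the loads, 4 lower and 2 higher at an unadjusted p under 0.05, and DESeq2 and limma voom called 0 (median -0.27). Of 27 fatty acid oxidation genes, 6 were lower and 0 higher with no overlap, 6 were lower at an unadjusted p under 0.05, DESeq2 called 1 lower and limma voom 0 (median -0.22). Of 27 tested complement and coagulation genes, 4 were lower and 0 higher at an unadjusted p under 0.05, with DESeq2 calling 2 and limma voom 0 (median -0.23). Plg, the precursor of plasmin, was at 1611, 1279 and 1690 CPM in siCntrl and 1136, 1001 and 986 CPM in mASO Scrbl (-0.55 ± 0.15, edgeR adjusted p = 0.427). Of 18 hepatocyte core genes, 5 were lower with no overlap, 5 were lower at an unadjusted p under 0.05, DESeq2 called 2 and limma voom 0. Ahsg, one of them, was at 14008, 9859 and 12905 CPM in siCntrl and 8236, 5587 and 8011 CPM in mASO Scrbl (-0.75 ± 0.19, edgeR adjusted p = 0.411). Fabp1, the fatty acid carrier of the hepatocyte, was at 4634, 5444 and 4771 CPM and at 2192, 3424 and 3248 CPM (-0.74 ± 0.19). Pck1, an enzyme of glucose synthesis that fasting induces, was at 1117, 701 and 1817 CPM and at 323, 182 and 566 CPM (-1.76 ± 0.49, edgeR adjusted p = 0.502). Ahsg, Fabp1 and Pck1 did not overlap between the loads.

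Among genes of scar-forming and immune cells, edgeR called 0 between the loads. Over all tested genes, 7.85% had an unadjusted p under 0.05, and 4.51% were lower at that p. Of 37 matrix and fibrosis genes, 5 had an unadjusted p under 0.05, edgeR, DESeq2 and limma voom called 0, and 34 had a negative difference (median -0.24). Col1a1, a chain of the main scar collagen, was at 282, 465 and 296 CPM in siCntrl and 211, 186 and 513 CPM in mASO Scrbl. Acta2 was at 124, 81.9 and 140 CPM and at 121, 95.2 and 145 CPM. Both genes overlapped between the loads. Of 17 stellate cell and myofibroblast genes, edgeR called 0, 6 were lower at an unadjusted p under 0.05, DESeq2 called 1 lower and limma voom 0 (median -0.42). The DESeq2 call was Hand2 (log2 difference -1.02, adjusted p = 0.0352). Colec11, a collectin enriched in stellate cells, was at 17.7 ± 0.775 CPM in siCntrl and 12.1 ± 1.09 CPM in mASO Scrbl (SD, n = 3, -0.56 ± 0.16). It did not pass edgeR's test, nor DESeq2 over the 12 libraries (adjusted p = 0.106), but passed DESeq2 over the 6 controls alone (0.0273). Of 12 monocyte and scar-associated macrophage genes edgeR, DESeq2 and limma voom called 0, and 5 were lower at an unadjusted p under 0.05 (median -0.61). Of 12 B and plasma cell genes edgeR and limma voom called 0, and 4 were lower at an unadjusted p under 0.05 (median -0.47). DESeq2 called 2 lower, the immunoglobulin genes Igha and Igkc, of which Igkc overlapped between the loads. Igj, listed under its other symbol Jchain and so not among the 12, was also called lower by DESeq2 (adjusted p = 0.0418, edgeR adjusted p = 0.458).

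Lists of basic cell functions differed in how tightly they were bounded. All 26 tested ribosomal protein genes, all 24 nuclear genes of oxidative phosphorylation and all 18 endoplasmic reticulum chaperone genes had a 95% interval within 2-fold, against 65.4% of all tested genes. EdgeR, DESeq2 and limma voom called 0 of them, and 0 had an unadjusted p under 0.05. Their medians were 0.09, 0.09 and -0.12. Of 20 genes of the NRF2 response to oxidative stress, edgeR, DESeq2 and limma voom called 0, and 4 were higher at an unadjusted p under 0.05 (median 0.26), while 12 were bounded within 2-fold. Txnrd1, a thioredoxin reductase, was at 135, 116 and 117 CPM in siCntrl and 173, 197 and 151 CPM in mASO Scrbl (0.50 ± 0.14). Of 24 cell cycle genes none was called by these tools, 2 were higher at an unadjusted p under 0.05, the median was 0.44 and 3 were bounded within 2-fold. For both lists, the share of all tested genes higher at that p was 3.34%.

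**Figure D5:**
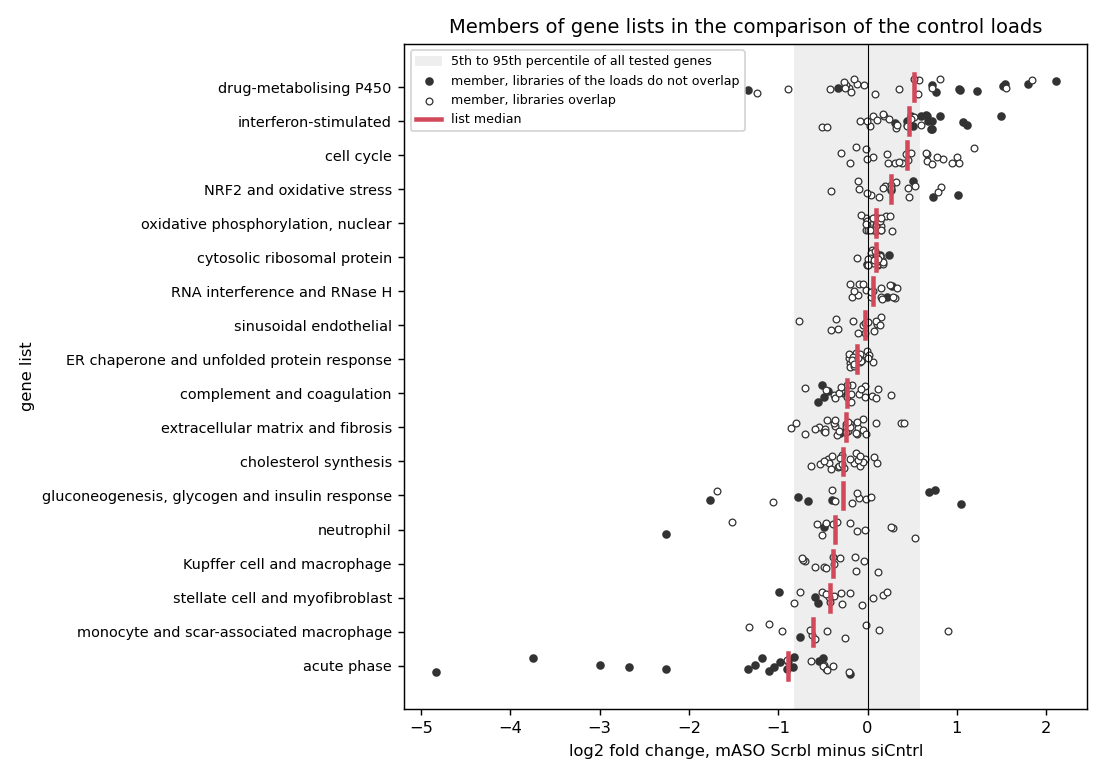
Log2 fold change of mASO Scrbl minus siCntrl for the tested members of 18 gene lists, ordered by list median (red bar), with filled points for members whose libraries do not overlap and a grey band from the 5th to the 95th percentile of all tested genes. The acute phase list has the lowest median, -0.90, and the P450 and interferon-stimulated lists the highest, 0.52 and 0.46.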

How the data were processed

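Mouse liver RNA was extracted with TRIzol and made into 12 stranded Illumina mRNA libraries, per the labels' protocols. The table of raw counts used here was deposited by the authors by gene symbol and is not normalized. The submitters' processing notes name TopHat and Cufflinks without versions. Build, annotation, counting tool and strand setting: not given in the sources used here. Paralogs, pseudogenes and overlapping genes are therefore uncertain. Positions and sequences come from GENCODE M21 and RefSeq by symbol, which matched 23773 and 21245 of 25540 symbols.

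All 12 libraries entered 1 fit in edgeR 4.0.16 (R 4.3.3) with 4 group means and TMM scaling, after a filter by group (minimum count 10, total 15) that kept 15720 genes and removed 9820. Tests were edgeR's robust quasi-likelihood F tests, Benjamini-Hochberg adjusted, at 0.05 (8 residual degrees of freedom, biological CV 0.247). The SE is the size of the log2 fold change divided by the square root of F. DESeq2 (1.42.0), limma voom (3.58.1), other scalings and filters, a replicate block, the 6 controls alone and leaving out each library were alternatives. A list's sum is over its tested members. Named genes were the called ones, Stat3, from each of 49 lists the called members, up to 4 with the smallest p and up to 5 with the highest level, the 25 largest shares, and the 10 least and 10 most variable genes. Saa4, the other genes of a promoter or copy pair, and Hacl1 were added after their values were seen. The members and lists were chosen with earlier results of these data known.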

Additional observations from a re-analysis of the deposited data

How the results depend on the processing

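The counts of calls between the loads changed with the processing, and the cause was not tested beyond what each alternative leaves out. Genes lower and higher in mASO Scrbl numbered 2 and 0 in edgeR's quasi-likelihood test, 2 and 3 with library totals in place of TMM (which moves the median of all genes from 0.01 to 0.12), 5 and 2 with no filter, 55 and 24 with DESeq2, and 64 and 37 with DESeq2 on the 6 controls alone, an alternative added after seeing the data. Leaving out each control library gave 0 to 9 lower and 0 to 4 higher genes. DESeq2 size factors, the stricter filter and limma voom each gave 2 and 0, the main genes. With the replicate block it was also 2 and 0, but Pck1 and Ppp1r2-ps4 (without Saa3), and with the 6 controls alone Gm13597 and Ppp1r2-ps4. Residuals of same-numbered controls correlated at -0.266 to 0.187, and those of all same-numbered libraries at -0.434 to 0.305. With so few libraries these values cannot decide whether the numbers pair the samples. Genes bounded within 2-fold numbered 9287 to 11487 over the alternatives, and calls between control and STAT3-labelled livers 8292 to 11180, each within 1.5 times. No log2 fold change printed for a single gene changed sign in any alternative. With 3 libraries a load, an exact permutation test cannot go below 0.1.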

Other observations

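Several variable features of the control livers differed widely within a load. Gm13456, a processed pseudogene, was at 142, 4.02 and 5.19 CPM in siCntrl and at 6.56, 180 and 113 CPM in mASO Scrbl, and at 4.68 to 139 CPM in the STAT3-labelled livers. Gm4149, another, was at 1.61, 1.38 and 1.52 CPM in siCntrl and at 33.2, 36.1 and 1.29 CPM in mASO Scrbl. Its libraries overlapped between the loads, and DESeq2 over the 12 libraries called it higher in mASO Scrbl (adjusted p = 0.0463, edgeR adjusted p = 0.569). Vcp-rs, a processed pseudogene of the X chromosome, was at 3.63, 35.4 and 45.3 CPM and at 40.1, 48.2 and 3.13 CPM. Each of these 3 had libraries at a low and at a high level within 1 load.

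The small RNA locus mmu-mir-6240 had 19.9, 0.0144 and 37.1 CPM in siCntrl and 21.7, 0.0121 and 0.0371 CPM in mASO Scrbl, against 40.5 to 119 CPM in the STAT3-labelled livers. Defb1, which encodes an epithelial defensin, was at 4.88, 18.2 and 8.79 CPM in siCntrl and 26.9, 80.4 and 53.2 CPM in mASO Scrbl (log2 difference 2.33 ± 0.49, or 2.97 without siCntrl replicate 2), and at 2.95 to 6.33 CPM in the STAT3-labelled livers. Hacl1, a peroxisomal enzyme that shortens branched fatty acids, was at 135, 88.3 and 140 CPM in siCntrl and 55.5, 50.9 and 54.7 CPM in mASO Scrbl (-1.17 ± 0.18, edgeR adjusted p = 0.0683). Gm15441 was at 7.32, 22.7 and 5.29 CPM in siCntrl and at 0.74, 24.04 and 4.15 CPM in mASO Scrbl, with 0.262 to 0.472 CPM in the STAT3-labelled livers.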
